A study of Homo sapiens with 12 samples.

Results

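The comparison described here is between Caco-2 spheroids given methotrexate together with lactoferrin and spheroids given methotrexate alone. Its genes were those with a mean of at least 5 CPM (counts scaled to a fixed library total) in the libraries with both agents, which held for 10710 of the 48162 genes in the table, and all 10710 were among the 16733 tested. The question was which epithelial genes depart from the factor by which epithelial genes as a group differ between the groups. Caco-2 is an established line from a human colorectal carcinoma whose cells take on features of small intestinal enterocytes. Cells at passage 26 were suspended in Matrigel, a basement membrane extract, and kept for 5 days with 20% fetal bovine serum and no change of medium. The exposure lasted 4 h and gave 4 groups of 3 libraries, named control (the carrier fluid alone), lactoferrin, methotrexate, and both agents together. The labels give neither the doses nor the origin of the replicates, which may be separate cultures or not. P-values therefore measure only the spread between these libraries, which may be technical.

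Methotrexate is an antifolate that blocks the supply of tetrahydrofolate for thymidylate and purine synthesis. Lactoferrin is an iron-binding glycoprotein of milk and mucosal secretions. Enterocytes carry an apical brush border of microvilli with digestive enzymes and transporters, and are sealed to their neighbours by tight junctions and held by adherens junctions and desmosomes. These structures and the factors that specify the intestinal epithelium gave the 8 epithelial gene lists used here. Of the 208 list genes with a row in the table, 170 were members and 38 were under the threshold. Just outside the threshold were LACC1 at 4.98 CPM and NBPF14 at 4.99 CPM with both agents, and just inside were TIFA and SLC2A13, each at 5.00 CPM.

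The 3 libraries with methotrexate alone stood apart from the other 9 before any gene was compared. They held 47459811 to 60591667 counts, against 19644459 to 22710347 with both agents. Transcripts of the mitochondrial genome took 6.67% to 7.54% of their counts, against 2.56% to 2.73%. Genes outside the 10710 members took 7.83% to 8.06%, against 0.853% to 0.901%. Epithelial markers were present in every library, and several lists of genes that mark other cells were higher with methotrexate alone. The summed level of 20 adipocyte markers was 23124 to 23550 CPM with methotrexate alone and 606 to 674 CPM with both agents. Of the 20, 19 lay above every library with both agents. One of the 20, RBP4, also stands in the epithelial list of hepatic-type secreted proteins, and its level with both agents is given below. ADIPOQ, the adipocyte hormone adiponectin, stood at 1279 to 1407 CPM with methotrexate alone and at 0 to 0.0440 CPM with both agents. Of 20 fibroblast markers, 19 were above every library with both agents, with sums of 22720 to 24246 against 7481 to 8438 CPM. HBB, the beta-globin of red cells, was 0 in all 6 libraries, and PTPRC, the leukocyte antigen CD45, was under 0.592 CPM in all 6. Smooth muscle and pericyte markers summed to 831 to 918 CPM with methotrexate alone and 195 to 255 with both agents. Macrophage and leukocyte markers summed to 125 to 131 against 54.4 to 59.5 CPM, with 4 of 19 above every library with both agents. Endothelial markers summed to 79.8 to 87.9 against 29.1 to 39.8 CPM, and neural and glial markers to 12.5 to 15.0 against 0.865 to 1.77. Erythroid markers summed to at most 0.352 CPM in all 6. The part of these markers in the results below was not tested. In bulk RNA, fewer cells of a type and less RNA per cell cannot be told apart.

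As a share of the library, most epithelial genes were lower with methotrexate alone than with both agents, while some, such as TF below, were higher. VIL1, the microvillus actin bundler villin (chr2:219283815-219318018 in hg19, as all coordinates from the table), stood at 351, 339 and 295 CPM with methotrexate alone and at 828, 852 and 758 CPM with both agents. CDH1, the adherens junction protein E-cadherin, stood at 490, 485 and 572 CPM against 1343, 1192 and 1333 CPM. EPCAM, the epithelial cell adhesion molecule, stood at 275, 252 and 309 CPM against 687, 633 and 950 CPM. For each of these genes the 3 libraries with both agents were above the 3 with methotrexate alone. Control and lactoferrin libraries stood at 786 to 859 CPM for VIL1, 1186 to 1265 CPM for CDH1 and 643 to 894 CPM for EPCAM.

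**Figure D1:**
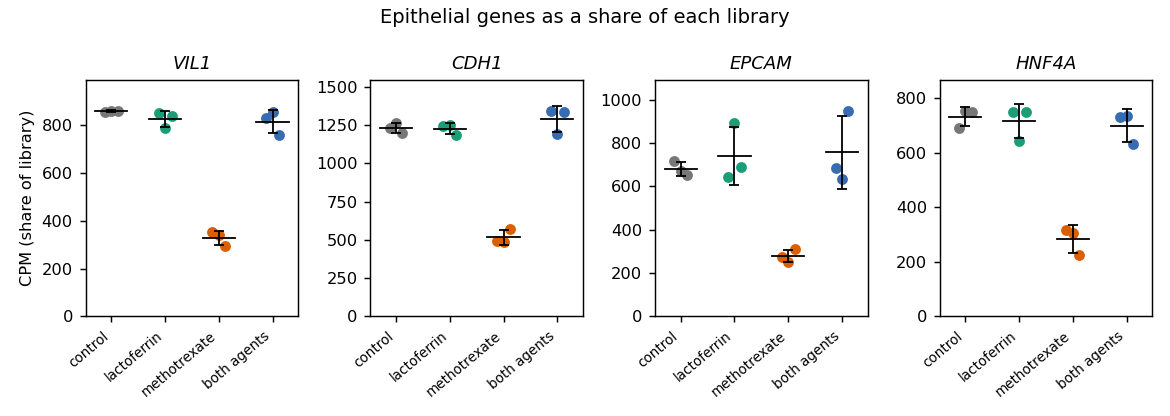
CPM, a share of each library, of 4 epithelial genes (VIL1, CDH1, EPCAM and HNF4A) in the 12 libraries. Points are libraries and bars the mean and SD over 3 libraries; the methotrexate points lie under all others, with VIL1 at 295 to 351 CPM against 758 to 852 CPM with both agents.

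The size of this common factor was read from 48 genes, the members of the brush border list (22) and of the tight junction and adhesion list (26). Under TMM, which sets the scale from the bulk of all genes, their median log2 difference (both agents minus methotrexate alone) was 0.92, or 1.90-fold, with quartiles of 0.59 and 1.08, and 43 of the 48 were above 0. The median was 0.91 for the brush border list and 0.94 for the junction list. In the lists that the scale did not use it was 1.00 for epithelial identity, 1.02 for intestinal transcription factors, 0.98 for hepatic-type secreted proteins, 0.88 for xenobiotic metabolism, and 0.71 each for transport and for polarity. Over all members it was 0.12, and over all genes tested -0.01. Measured as a share of the library, the factor was 2.18-fold, and the 9 pairs of libraries gave 2.04-fold to 2.38-fold.

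Counts were then scaled so that the median of these 48 genes was level between libraries. This scale, called epithelial scaling here, lay 0.83 log2 units from TMM, so that every gene's difference is lower on it by that amount. A gene's departure is its log2 difference on this scale, both agents minus methotrexate alone. A departure of 0 matches a difference of 0.83 under TMM, and the factor below means the one that this scale removes. It is smaller than the TMM median of 0.92 over the 48 genes. Median departures were thus slightly above 0, at 0.08 for the brush border list and 0.12 for the junction list. Levels on this scale are given in units that match CPM on average in the libraries with both agents. The departures of the 48 genes themselves describe their spread around a scale that they set.

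Most members did not follow the epithelial factor. With epithelial scaling 200 of the 10710 members were higher with both agents and 7993 were lower, while 2517 were not called at an adjusted p under 0.05 by edgeR's quasi-likelihood test. Over all genes tested the shares were 1.45% higher and 71.3% lower, or 72.7% called. The median departure of members was -0.71, with quartiles of -1.20 and -0.31, against a median of -0.84 over all genes tested. Asked for a departure of more than 1.5-fold, the same fit called 1 member higher and 4842 lower, against 0.0538% and 49.4% of all genes tested. Under TMM, 4064 members were higher and 2944 lower, against 28.8% and 34.4% of all genes tested, or 63.2% called. Of the 4064, 200 remained higher with epithelial scaling, 1436 were lower and 2428 were not called. All 2944 that were lower under TMM were also lower with epithelial scaling, as the shift of 0.83 between the scales leads to. The median departure was -0.89 for members at 5 to 30 CPM, -0.70 from 30 to 100 CPM, -0.52 from 100 to 300 CPM and -0.41 from 300 CPM upward. These bins were cut on the level with both agents, which is 1 side of the departure, so the gradient is a description.

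Genes of the epithelial lists lay closer to the factor. Of 170, 26 were higher, 33 were lower and 111 were not called, and none was higher and 17 were lower by more than 1.5-fold. Over all genes tested 1.45% were higher and 71.3% lower, and the counts of each list below are to be read beside these shares. Their median departure was 0.11, with quartiles of -0.18 and 0.26, and 87 of them (51.2%) lay within 0.25 of 0, against 1954 (18.2%) of all members. Among the 122 list genes that the scale did not use, 18 were higher and 22 lower. The libraries of the 2 groups did not overlap for 31 list genes that were higher and 30 that were lower, where 2.19% and 70.6% of all genes tested did so, 72.8% in all. Under TMM 143 of the 170 were higher and 12 lower, against 28.8% and 34.4% of all genes tested. The count of 26 higher rested in large part on the library with both agents numbered 3, without which 10 were higher. It also rested on the scale. With the other 6 epithelial lists as the scale, 0.89 from TMM, 18 were higher, and with the epithelial identity list, 0.98 from TMM, 7 were.

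**Figure D2:**
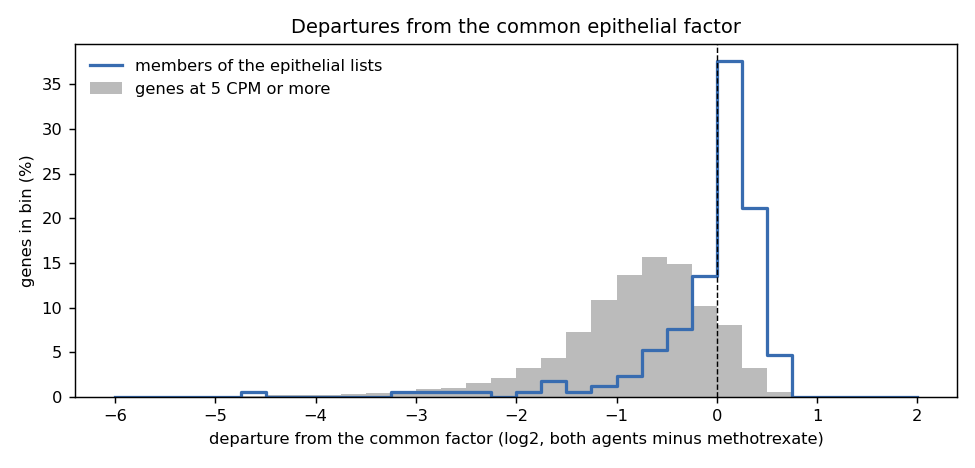
Share of genes (%) by departure from the common factor (log2, both agents minus methotrexate alone, bins of 0.25, drawn from -6) for the 10710 members (grey) and the 170 members of the epithelial lists (blue line). The members centre on -0.71 and the epithelial genes on 0.11, with a long tail of lower genes.

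Brush border genes, which helped to set the scale, mostly followed the factor. Of 22 members, 1 was higher, 5 were lower and 16 were not called, with a median departure of 0.08; under TMM 18 were higher and 2 lower. VIL1 had a departure of 0.19 ± 0.09 (SE, adjusted p = 0.061), with levels of 736, 740 and 664 with methotrexate alone and 782, 875 and 780 with both agents. DPP4, the dipeptidyl peptidase of the apical membrane, was the gene that was higher (0.33, adjusted p = 0.015), and the call was lost without the library with both agents numbered 3 (0.19) and without either of the methotrexate libraries numbered 1 and 2. ANPEP, the brush border enzyme aminopeptidase N (chr15:90328120-90358633), stood at 176, 183 and 171 with methotrexate alone and at 46.2, 42.7 and 47.1 with both agents. Its departure was -1.96 ± 0.12 (adjusted p = 5.3e-11), and it was also lower under TMM (-1.13). EPS8, which caps and bundles actin in microvilli, had a departure of -1.71, and MYO7B, the myosin at microvillus tips, one of -1.10. CUBN, the vitamin B12 receptor cubilin, at -0.55, and EPS8L2, an EPS8 relative, at -0.27, were above 0 under TMM (0.28 and 0.56).

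Junction genes, which also helped to set the scale, fell on both sides of the factor. Of 26 members, 7 were higher and 6 lower, with a median of 0.12; under TMM 22 were higher and 1 lower. CDH1 had a departure of 0.20 ± 0.10 (adjusted p = 0.069) and EPCAM one of 0.32 ± 0.15 (adjusted p = 0.067), and neither was called. Both were called without the methotrexate library numbered 3 (0.29 and 0.41), and EPCAM also without the library with both agents numbered 1 or 2 (0.43 each) and with no filter on low counts. The desmosomal cadherin DSC2 was at 28.4, 28.8 and 15.0 with methotrexate alone and at 33.8, 31.3 and 49.7 with both agents, a departure of 0.67 (adjusted p = 0.0094). MARVELD2, the tricellulin of three-cell contacts, had a departure of 0.51 (adjusted p = 0.0051). Without the library with both agents numbered 3, neither DSC2 (0.41, adjusted p = 0.090) nor MARVELD2 (0.31, adjusted p = 0.057) was called, and 1 gene of the list was higher.

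The junction genes below the factor included catenin genes. CTNNB1, the beta-catenin that links E-cadherin to the cytoskeleton and carries Wnt signals (chr3:41236328-41301587), stood at 400, 403 and 424 against 198, 200 and 221, a departure of -0.99 ± 0.09 (adjusted p = 1.7e-08). CTNNA1, the alpha-catenin that binds it, had a departure of -0.68. The groups did not overlap for either. Under TMM CTNNB1 was not called (-0.16) and CTNNA1 changed sign (0.15).

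Epithelial identity genes, which include keratins, splicing regulators and surface proteins of simple epithelia, lay close to the factor. Of 24 members, 3 were higher, none was lower and 21 were not called, with a median of 0.17; under TMM 23 were higher. Without the methotrexate library numbered 1 or 2, or with no filter on low counts, 1 was lower. The 3 were GRHL2, a transcription factor that maintains epithelial junctions (0.39, adjusted p = 0.013), ESRP1, an epithelial splicing regulator (0.33), and TSPAN8, a tetraspanin (0.33). None of the 3 was called with the identity list itself as the scale. KRT20, a keratin of differentiated intestinal cells, was under the threshold at 3.11 CPM with both agents.

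Among intestinal transcription factors 2 of 18 members were higher and 3 lower, with a median of 0.20; under TMM 16 were higher and 1 lower. HNF4G, a nuclear receptor of enterocytes, had a departure of 0.61 (adjusted p = 0.0088), which was not called without the library with both agents numbered 3 (0.42). HNF4A, its relative and a main regulator of enterocyte genes, was at 668, 670 and 506 against 693, 756 and 650 and was not called (0.19). CDX2, the intestinal homeobox factor, stood at 248, 262 and 94.1 with methotrexate alone and at 264, 282 and 273 with both agents. Its departure of 0.44 was not called (adjusted p = 0.099), and the methotrexate library numbered 3 was far below the other two. CDX2 was called without the methotrexate library numbered 1 (0.61) or 2 (0.67), which leaves that low library as 1 of 2, and with no filter on low counts. KLF4, a factor of differentiated epithelial cells, was at 97.3, 85.8 and 107 against 12.4, 12.6 and 14.9, a departure of -2.86. VDR, the vitamin D receptor (-0.67), and TCF7L2, a Wnt effector (-0.58), were also lower and were above 0 under TMM (0.18 and 0.25).

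Transporters leaned below the factor, though less than genes at large. Of 25 members 3 were higher and 10 lower, with a median of -0.13. Over all genes tested 1.45% were higher and 71.3% lower, with a median of -0.84. Under TMM 18 transporters were higher and 3 lower. SLC2A5, the apical fructose transporter GLUT5, stood at 296, 375 and 372 with methotrexate alone and at 14.6, 8.10 and 17.0 with both agents, a departure of -4.71 ± 0.27. AQP3, the basolateral channel for water and glycerol, stood at 238, 238 and 252 against 36.0, 39.2 and 39.1 (-2.67). SLC16A1, the monocarboxylate transporter that takes up butyrate and lactate, had a departure of -1.07. The 3 higher were SLC9A2, a sodium-proton exchanger (0.42), ATP1B1, the beta subunit of the sodium pump (0.34), and CFTR, the apical chloride channel (0.32). Without the library with both agents numbered 3, or with the identity list as the scale, no transporter was higher.

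Of 20 polarity and apical trafficking genes, 3 were higher and 4 lower, with a median of -0.12; under TMM 17 were higher and none lower. MAL2, a raft protein of transport to the apical surface, was at 143, 143 and 161 against 179, 189 and 258, a departure of 0.49 ± 0.14 (adjusted p = 0.0038). MYO5B, the motor of apical recycling endosomes (0.37), and PARD6B, a subunit of the apical Par complex (0.35), were higher as well, and neither was called without the library with both agents numbered 3 (0.24 and 0.09). RAB11A, the GTPase of apical recycling endosomes, was at 200, 213 and 249 against 103, 98.2 and 139, a departure of -0.96. The other three were the clathrin adaptor subunit AP1B1 (-0.90), the basolateral scaffold SCRIB (-0.58) and the Par complex scaffold PARD3 (-0.30). Under TMM none of these 4 was lower, and SCRIB and PARD3 were above 0 (0.25 and 0.53).

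Caco-2 cells also express plasma proteins usually made by hepatocytes. Of 22 such genes, 4 were higher and 2 lower, with a median of 0.15; under TMM 19 were higher and 2 lower. FGA, the fibrinogen alpha chain (chr4:155504278-155511918), was at 221, 240 and 207 with methotrexate alone and at 280, 312 and 332 with both agents. Its departure was 0.47 ± 0.10 (adjusted p = 4.1e-04). The gamma chain FGG had a departure of 0.29, ITIH2, a hyaluronan-binding plasma protein, one of 0.28, and APOB, the structural protein of chylomicrons and LDL, one of 0.35. TF, the iron carrier transferrin (chr3:133464800-133497850), was at 3491, 4969 and 4722 with methotrexate alone and at 8.16, 6.33 and 10.5 with both agents, a departure of -9.04 ± 0.23. The control and lactoferrin libraries stood at 5.65 to 8.45. RBP4, the retinol carrier that adipocytes also secrete and that stands in the adipocyte list, was at 2139, 2514 and 2371 against 403, 483 and 407 (-2.44).

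Of 13 genes of xenobiotic metabolism, 3 were higher and 3 lower, with a median of 0.05; under TMM 10 were higher and 3 lower. SULT2A1, a sulfotransferase for steroids and bile acids, was at 43.2, 43.7 and 46.7 with methotrexate alone and at 58.3, 66.4 and 60.3 with both agents, a departure of 0.47 ± 0.11 (adjusted p = 7.6e-04). The glucuronosyltransferase UGT2B7 had a departure of 0.66 and the monooxygenase CYP1A1 one of 0.55. Neither call held in every alternative: UGT2B7 was at 0.34 without the library with both agents numbered 3 and CYP1A1 at 0.32 without the methotrexate library numbered 3. EPHX1, the microsomal epoxide hydrolase (chr1:225997794-226033260), was at 840, 948 and 928 against 95.1, 107 and 89.3, a departure of -3.22 ± 0.10. The carboxylesterase CES2 (-1.64) and the glutathione transferase GSTA4 (-1.499) were the other two.

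**Figure D3:**
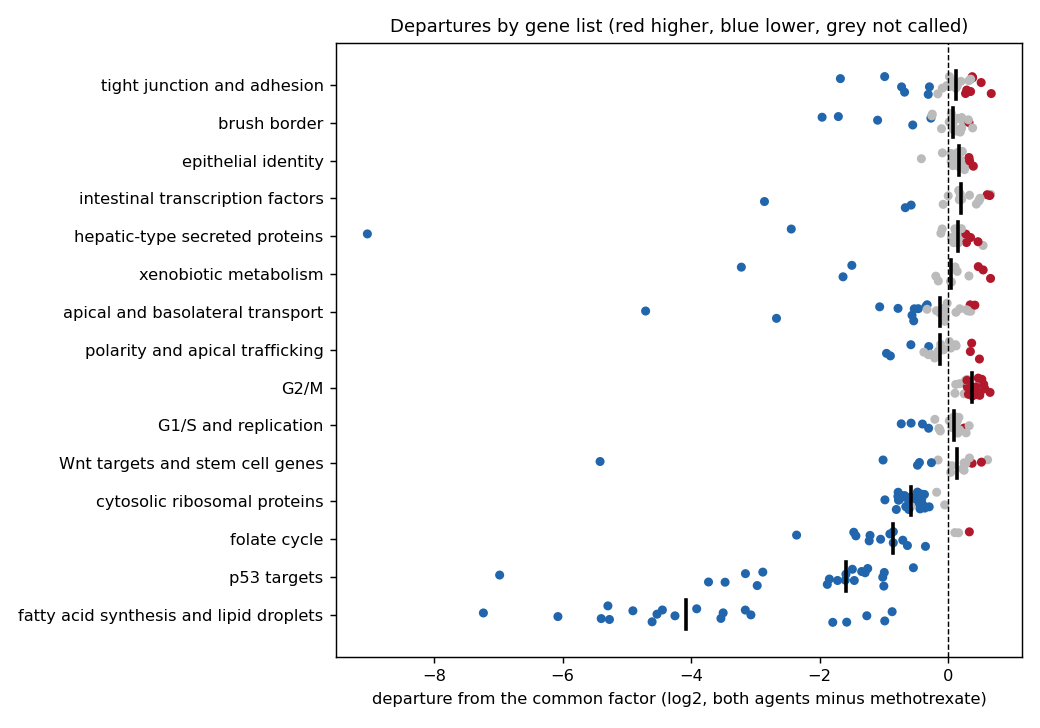
Departure from the common factor (log2, both agents minus methotrexate alone) of each member of 15 gene lists, the 8 epithelial lists at the top. Points are genes, red where higher and blue where lower by the test and grey where not called, and black bars are medians; the epithelial medians lie between -0.13 and 0.20 and the lipid list at -4.08.

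Of the 33 epithelial genes below the factor, 24 were lower without each of the 6 libraries in turn, and 12 of those were lower under TMM too. Among the 12 were ANPEP, AQP3, CES2, EPHX1, EPS8, GSTA4, KLF4, RBP4, SLC16A1, SLC2A5 and TF. They were spread over 6 of the 8 lists. CUBN, EPS8L2 and PARD3 were not called without the library with both agents numbered 1, and each also lost its call without at least 1 other library.

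Of the 26 epithelial genes above the factor, 6 were higher without each of the 6 libraries in turn, FGA, FGG, MAL2 and SULT2A1 among them. DSC2, MARVELD2, DPP4, GRHL2, ESRP1, TSPAN8, HNF4G, SLC9A2, ATP1B1, CFTR, MYO5B, PARD6B, APOB, ITIH2 and UGT2B7 were not called without the library with both agents numbered 3. GRHL2, SLC9A2, PARD6B, APOB and CYP1A1 were not called without the methotrexate library numbered 3. DPP4, ESRP1, CFTR, ATP1B1, ITIH2, APOB, TSPAN8, PARD6B, UGT2B7 and CYP1A1 were not called without 1 or both of the other methotrexate libraries. APOB and CYP1A1 also lost their calls without the library with both agents numbered 1, and CYP1A1 without number 2.

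**Figure D4:**
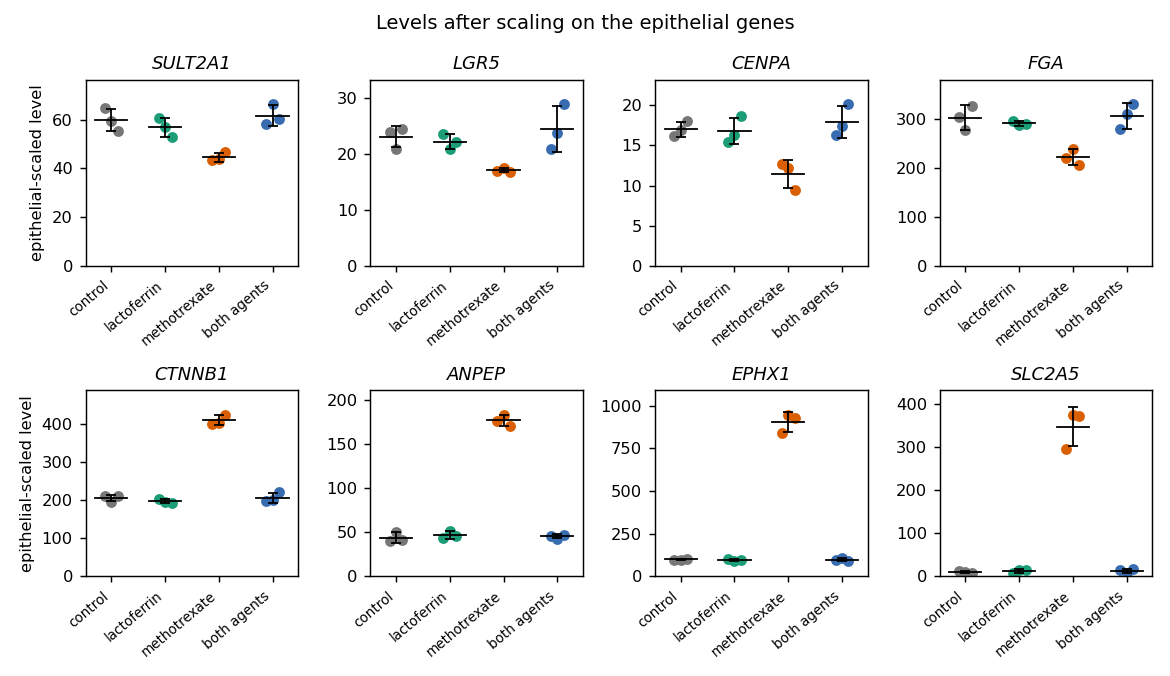
Epithelial-scaled level (units match CPM with both agents) of 4 genes above the factor (SULT2A1, LGR5, CENPA, FGA) and 4 below it (CTNNB1, ANPEP, EPHX1, SLC2A5) in the 12 libraries. Points are libraries and bars the mean and SD over 3; the methotrexate points lie apart from all other points in each panel, as for EPHX1 at 905 ± 57.3 against 97.2 ± 9.13 with both agents.

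Above the factor, departures were small. The largest among members was 1.02, for AC020571.3, an uncharacterised transcript named here after its value was seen, and it was the only member higher by more than 1.5-fold. Without the methotrexate library numbered 3, or without the library with both agents numbered 3, no member was, and without the methotrexate library numbered 2 there were 3. Among genes with a name, the largest with no overlap of libraries were DMRTA2, a transcription factor, at 0.84, UCA1, a long noncoding RNA, at 0.82, TFEC, a basic helix-loop-helix factor, at 0.79, and P2RY6, a receptor for UDP, at 0.73. UCA1 was at 2.82, 2.59 and 3.55 with methotrexate alone and at 5.70, 4.60 and 5.52 with both agents. DMRTA2 was at 4.41, 6.76 and 1.58 against 8.20, 7.68 and 6.99, and without the methotrexate library numbered 3 its departure was 0.43 and not called, nor was it called without 3 of the other libraries. Their mean levels with methotrexate alone, 2.99 for UCA1 and 4.25 for DMRTA2, are on the epithelial scale. On that scale the methotrexate libraries stand above their CPM. UCA1 and DMRTA2 thus passed the member threshold of 5 CPM only through the group where they were high, so their values are given as a description. The same may hold for other genes named here at low levels. TFEC was not called without the library with both agents numbered 3 (0.43), nor P2RY6 without the methotrexate library numbered 3 (0.40).

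Of the 200 members above the factor, 83 were higher without the library with both agents numbered 3, 60 of them among the 200. In all, 29 were higher without each of the 6 libraries in turn, and 20 of the 29 were higher also with the identity list as the scale. Among the 20 were AC020571.3, ALPPL2, ANLN, CENPA, ERVMER34-1, FGA, KIF20A, KLHL13, LGR5, LIN28B, LINC00857, MAL2, NCAPH, PHYHIPL, SMLR1, SULT2A1, TRPM6, UBE2C and UCA1. ALPPL2 is a placental-type alkaline phosphatase (0.67), TRPM6 the apical magnesium channel (0.66), LIN28B a binder of let-7 precursors (0.62) and LGR5 the R-spondin receptor of intestinal stem cells (0.52). LIN28B was at 44.6, 43.3 and 31.5 with methotrexate alone and at 53.02, 59.0 and 70.9 with both agents. LGR5 was at 17.0, 17.5 and 16.8 against 20.8, 23.7 and 28.9, with no overlap. CENPA, ANLN, KIF20A and UBE2C act in mitosis and stand in the mitotic list below. UCA1 passed the member threshold only through the group where it was high, so its place among the 20 is a description. The counts of 200, 29 and 20 were not freed of such members, and 66 of the 200 were at 5 to 30 CPM with both agents.

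The mitotic genes had the highest median of all lists. Of 27 genes of the G2 and M phases, 20 were higher, none was lower and 7 were not called, with a median departure of 0.38 and a range of 0.11 to 0.65, against 1.45% higher over all genes tested. Under TMM all 27 were higher. The count fell to 6 without the library with both agents numbered 3 and to 4 with the identity list as the scale, the 4 being CENPA, ANLN, KIF20A and UBE2C. CENPA, the histone variant of centromeres, was at 12.7, 12.2 and 9.42 with methotrexate alone and at 16.3, 17.5 and 20.2 with both agents, a departure of 0.65 ± 0.15 (adjusted p = 7.5e-04). KIF20A, a kinesin of the central spindle, was at 74.3, 76.5 and 55.8 against 86.5, 94.8 and 116 (0.52). ANLN, the anillin of the contractile ring, was at 60.6, 56.9 and 51.6 against 67.1, 74.0 and 110 (0.57). UBE2C, the ubiquitin-conjugating enzyme of the anaphase-promoting complex, had a departure of 0.38. MKI67, the proliferation antigen Ki-67, had a departure of 0.55 (adjusted p = 0.012) with overlapping groups, and was not called without the library with both agents numbered 3 (0.33) or the methotrexate library numbered 3 (0.35). For each of these genes the methotrexate library numbered 3 was the lowest of its group.

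Promoters of G2 and M genes are known for a short element near the start, the cell cycle gene homology region. The 250 bases before the start of each gene were read from RefSeq on GRCh38.p14, and TTTGAA was searched on both strands, where TTCAAA is its other strand. It was found in 14 of the 23 promoters of the mitotic list that could be matched (60.9%), in none of 23 for the list of G1/S and replication genes, in 4 of 20 for brush border genes (20.0%) and in 13.6% of 27305 promoters in all. TTCGAA, another form of the element, was in none of the mitotic promoters and in 1.20% of all. Further forms were not searched. CCAAT, on either strand, was in 19 of the 23 (82.6%) and in 33.0% of all. A match is a description of the letters and not a site. Promoters of 3 of the 4 genes of the mitotic list that kept their call are shown, to set matches beside a promoter with no match. They are in lower case with TTTGAA or TTCAAA in capitals. CENPA lies at chr2:26785806-26786055, ANLN at chr7:36389612-36389861 and KIF20A at chr5:138178862-138179111, all on the plus strand.
CENPA: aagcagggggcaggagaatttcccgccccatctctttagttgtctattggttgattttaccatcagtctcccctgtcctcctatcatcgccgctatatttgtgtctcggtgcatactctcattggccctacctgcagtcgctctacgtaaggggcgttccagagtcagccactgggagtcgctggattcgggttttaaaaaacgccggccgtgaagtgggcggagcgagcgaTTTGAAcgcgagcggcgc
ANLN: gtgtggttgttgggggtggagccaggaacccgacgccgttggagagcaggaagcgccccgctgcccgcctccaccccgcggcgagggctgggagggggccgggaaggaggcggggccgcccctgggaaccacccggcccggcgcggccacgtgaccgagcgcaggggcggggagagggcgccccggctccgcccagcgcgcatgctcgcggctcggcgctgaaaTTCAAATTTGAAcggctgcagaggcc
KIF20A: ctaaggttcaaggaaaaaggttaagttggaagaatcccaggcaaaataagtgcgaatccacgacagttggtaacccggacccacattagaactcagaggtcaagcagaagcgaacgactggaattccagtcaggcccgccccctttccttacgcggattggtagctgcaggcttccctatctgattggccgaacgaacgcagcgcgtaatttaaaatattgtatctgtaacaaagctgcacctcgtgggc
In CENPA the match begins 18 bases before the start. In ANLN 2 matches abut, the nearer beginning 20 bases before the start. KIF20A, whose level differed in the same direction, held neither TTTGAA nor TTCGAA in this window, and further forms were not searched.

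Genes of the G1/S transition and of replication mostly lay on the factor. Of 28 members, 1 was higher, 4 were lower and 23 were not called, with a median of 0.09. Over all genes tested 1.45% were higher and 71.3% lower. Under TMM 27 of the 28 were higher and none lower. The gene that was higher was GINS1, a subunit of the replicative helicase (0.24), whose call was lost without any of the libraries except the one with both agents numbered 1. The 4 lower were SLBP, the histone mRNA binder (-0.73), RPA2, a subunit of the single-strand binding complex (-0.58), RFC4, a clamp loader subunit (-0.40), and FEN1, the flap endonuclease (-0.30), the last 2 not called without the library with both agents numbered 1. These 4 were above 0 under TMM, from 0.11 for SLBP to 0.52 for FEN1. The difference between the mitotic and the replication list was not tested.

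Genes of nucleotide synthesis were read against the 71.3% of all genes tested that were lower and their median of -0.84. Of 15 members of the folate cycle, 1 was higher, 12 were lower and 2 were not called, with a median of -0.85, which are near that background; under TMM 4 were higher and 4 lower. TYMS, the thymidylate synthase that consumes a folate cofactor, was at 41.3, 40.1 and 42.2 against 48.3, 50.3 and 56.8, a departure of 0.33 (adjusted p = 0.013) that was not called with the identity list as the scale (0.18) or without the library with both agents numbered 3 (0.23). SHMT1, the cytosolic serine hydroxymethyltransferase, was at 402, 425 and 409 against 76.8, 83.7 and 80.2 (-2.36).

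Of 12 genes that move methotrexate or attach glutamate to it, 1 was higher and 5 were lower, with a median of 0.09. Over all genes tested 1.45% were higher and 71.3% lower. Under TMM 8 of the 12 were higher and 2 lower. FPGS, which adds the glutamate tail that retains folates and methotrexate in cells, was at 283, 304 and 276 against 59.3, 70.9 and 51.3 (-2.25). SLC19A1, the reduced folate carrier that imports methotrexate, had a departure of -0.89 and was not called under TMM (-0.06). The efflux pumps ABCC1 (-1.12), ABCC5 (-0.75) and ABCC3 (-0.44) were lower, and ABCC2, the apical pump, was higher (0.35), though not without the library with both agents numbered 3 (0.22). Under TMM ABCC5 and ABCC3 were above 0 (0.08 and 0.39). Purine synthesis had 8 of 14 members lower and none higher, where 71.3% of all genes tested were lower. Its lowest was IMPDH1, an enzyme of guanine nucleotide synthesis (-2.56); under TMM 8 were higher and 2 lower. Of 18 genes of pyrimidine and deoxynucleotide synthesis, 13 were lower, again near that share, and 1 was higher, RRM2, a subunit of ribonucleotide reductase (0.31), not called without the methotrexate library or the library with both agents numbered 3 (0.24 and 0.20); under TMM 9 were higher and 5 lower.

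The 10 members furthest below the factor were COL4A2, TF, GPD1, COL6A2, CCDC80, ACSL1, COL5A1, CIDEC, CDKN1A and LIPE. COL4A2, a basement membrane collagen (-9.34), COL6A2 (-8.24) and COL5A1 (-7.08), both interstitial collagens of fibroblasts, and CCDC80, a secreted matrix protein (-7.36), were called with no overlap. GPD1, the enzyme that makes glycerol phosphate for triglycerides, was at 5368, 5541 and 5489 with methotrexate alone and at 11.4, 11.6 and 11.8 with both agents (-8.88). CIDEC, a lipid droplet protein (-7.03), and LIPE, the hormone-sensitive lipase (-6.92), stand with GPD1 in the adipocyte list, and COL6A2 and COL5A1 in the fibroblast list, whose sums differed as given above. ACSL1, a fatty acid CoA ligase, was at -7.23 and SCD, the stearoyl-CoA desaturase, at -4.91, within a list of lipid synthesis and droplet genes of which 20 of 20 were lower, against 71.3% of all genes tested, with a median of -4.08; under TMM 18 were lower and none higher.

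CDKN1A, the cell cycle inhibitor p21, was at 1810, 1859 and 2153 with methotrexate alone and at 15.9, 15.0 and 15.1 with both agents, a departure of -6.98 ± 0.14 (adjusted p = 1.7e-17). Control and lactoferrin libraries stood at 15.1 to 19.4, so that only the methotrexate libraries were away from the rest. Of 20 p53 target genes all were lower, with a median of -1.60, against 71.3% of all genes tested; under TMM 16 were lower and none higher. Of 24 immediate early and ERK feedback genes, 20 were lower and 1 was higher, EREG, the ligand epiregulin (0.44), with a median of -1.998; under TMM 18 were lower and 4 higher. EREG was not called without either library numbered 3 or without the methotrexate library numbered 1. JUN, an AP-1 subunit, was at 440, 330 and 512 against 14.1, 13.8 and 15.0 (-4.90). MYC, the growth regulator, was at 236, 213 and 82.9 against 120, 131 and 125 and was not called (-0.50, adjusted p = 0.071). Without the methotrexate library numbered 3 its departure was -0.86 and called (adjusted p = 6.3e-06).

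Genes of energy metabolism and translation were below the factor to different degrees. Over all genes tested 71.3% were lower, and 34.4% under TMM. Of 13 genes of the mitochondrial genome all were lower, with a median of -2.40; MT-ND2, a subunit of complex I, was at 12665, 15119 and 15740 against 1202, 1295 and 1333 (-3.51). Under TMM 12 of the 13 were lower and none higher. Of 28 nuclear genes of oxidative phosphorylation 27 were lower, with a median of -1.13; under TMM 15 were lower and 1 higher. Of 35 cytosolic ribosomal protein genes 32 were lower, with a median of -0.58, and the direction turned under TMM, where 19 were higher and none lower. RPLP0, the stalk protein of the large subunit, had a departure of -0.68 and was at 0.16 under TMM, where it was not called.

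Lactoferrin binds iron, and 18 members of an iron handling list were measured. With both agents 13 were lower and none higher, a share near the 71.3% of all genes tested that were lower. Their median was -1.32, against -0.84 over all genes tested, and under TMM 10 were lower and 6 higher. TFRC, the transferrin receptor, whose mRNA is stabilised when cells lack iron, was at 465, 434 and 491 with methotrexate alone and at 422, 417 and 580 with both agents, a departure of 0.03 ± 0.12 (adjusted p = 0.84). FTH1, the ferritin heavy chain that stores iron, was at 1688, 2123 and 1979 against 272, 370 and 333 (-2.57), and control libraries stood at 197 to 311. HMOX1, the heme oxygenase, had a departure of -5.16, and ACO1, an iron regulatory protein, one of -2.84. The LTF gene itself was no member at 0.570 CPM with both agents. It stood at 12.8, 9.72 and 8.55 with methotrexate alone and at 0.624, 0.418 and 0.659 with both agents.

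Of 16 Wnt target and stem cell genes, 2 were higher and 5 lower, with a median of 0.14. Under TMM 14 were higher and 1 lower. Over all genes tested 71.3% were lower and 1.45% higher, and under TMM 34.4% were lower and 28.8% higher. LGR5 and PROM1, the membrane protein prominin (0.37), were higher, and PROM1 was not called without the library with both agents numbered 3 (0.19). CD44, the hyaluronan receptor, was at 433, 473 and 522 against 11.3, 10.2 and 11.8 (-5.42). The receptor EPHB3 (-1.01), the transcription factors TCF7 (-0.48) and SOX4 (-0.45) and the ligase ZNRF3 (-0.26) were also lower, and TCF7, SOX4 and ZNRF3 were above 0 under TMM (0.35, 0.37 and 0.57). Of 13 genes regulated by TGF-beta, BMP or YAP, 12 were lower, where 71.3% of all genes tested were. The LIM protein AJUBA was the 1 that was higher (0.41). Under TMM 9 were lower and 1 higher. AJUBA was not called without the methotrexate library numbered 3 (0.16) or the library with both agents numbered 2 (0.35), nor ZNRF3 without the methotrexate library numbered 3 (-0.23) or the library with both agents numbered 1 (-0.20).

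The effect of lactoferrin without methotrexate was read from the control and lactoferrin groups, which share no library with the comparison above. No member was called at an adjusted p under 0.05 by edgeR's quasi-likelihood test. At an unadjusted p under 0.05 there were 232 of the 10710 members and 592 of the 16733 genes tested, DESeq2 called 1, and edgeR without a filter on low counts called 14. Over the 170 epithelial genes this effect ran from -0.43 to 0.48, with quartiles of -0.06 and 0.07. Between both agents and control no member was called either. By edgeR's test 5 of the 16733 genes tested were called, all higher with both agents and all outside the members. At an unadjusted p under 0.05 there were 186 members and 629 of all genes tested, and the smallest adjusted p of a member was 0.22. The 170 epithelial genes ran from -0.34 to 0.55. Between both agents and methotrexate alone the same genes ran from -9.04 to 0.67.

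**Figure D5:**
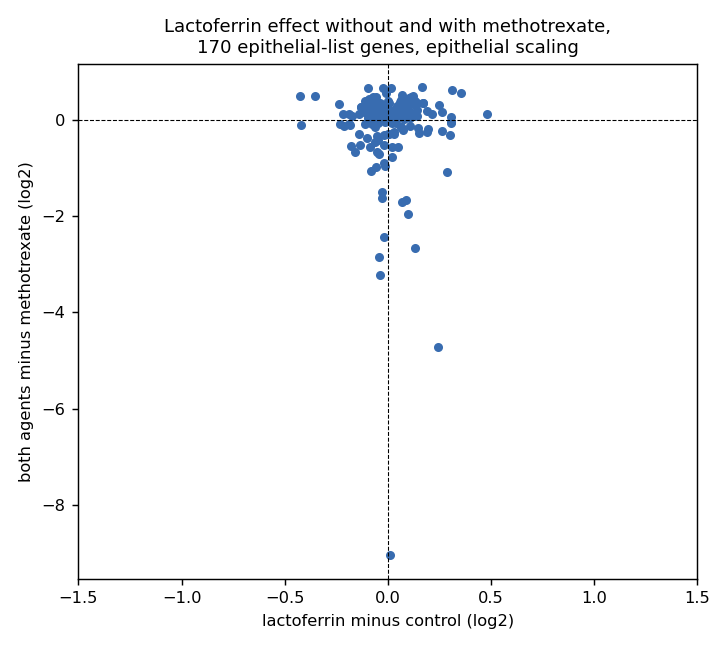
Log2 difference of lactoferrin minus control (horizontal axis) and of both agents minus methotrexate alone (vertical axis) for 170 genes of the epithelial lists, with epithelial scaling; each point is a gene. The horizontal values lie between -0.43 and 0.48 and the vertical ones between -9.04 and 0.67.

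The difference between the 2 effects of lactoferrin, with and without methotrexate, was tested as an interaction in the same fit. It was called for 7274 members, 68 above 0 and 7206 below, against 0.538% and 61.8% of all genes tested, or 62.4% called. Among the 170 epithelial genes 9 were above 0 and 24 below. The interaction was 0.54 for SULT2A1 (adjusted p = 0.0050) and for FGA 0.52 (adjusted p = 0.0038). MAL2 (0.36, adjusted p = 0.11), MARVELD2 (0.45, adjusted p = 0.078) and GRHL2 (0.39, adjusted p = 0.080) were not called. For CTNNB1 it was -0.93 and for ANPEP -2.06, each called. These genes were named for their departure, which is 1 of the 2 effects in the interaction, so the values are a description.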

How the data were processed

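RNA was extracted after the exposure and sequenced as read pairs, per the labels. The submitters' processing notes name CASAVA, STAR, DESeq2 and build hg19; no role, version, counting program or strand setting is given in the sources used here, so overlapping and antisense genes such as TMPO-AS1 and paralogs may share reads. The deposited values are whole-number counts per gene, not normalized, with 1 column for each of the 12 libraries. Tests ran with edgeR 4.0.16 and limma 3.58.1 in R 4.3.3 (DESeq2 1.42.0 as an alternative). After filterByExpr, 16733 genes were fitted with 1 mean per group over all 12 libraries by glmQLFit, with TMM or with size factors equal to the median ratio over the 48 scaling genes. Contrasts were tested with glmQLFTest, departures over 1.5-fold with glmTreat, and p-values adjusted by Benjamini-Hochberg over all genes tested. Library totals lay between 18714054 and 60591667, which puts 3 counts at 0.0495 to 0.160 CPM. No pair of libraries agreed within sampling noise. Members and gene lists were chosen with earlier results of these data known. Named genes were the 20 largest rises and 10 largest falls among members called with no overlap between libraries, 10 and 10 of the same kind within the epithelial lists, up to 4 members with the lowest p of each list, and further genes named in any case (VIL1, CDH1, EPCAM, KRT20, CDX2, HNF4A, TYMS, TFRC, FTH1, CDKN1A, MKI67, LGR5, LTF and MYC); uncharacterised clones were passed over and some genes are not reported here. Genes that complete a count of 5 or fewer, and those listed as keeping their call, were named after their values were seen. Promoter letters came from RefSeq.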

Additional observations from a re-analysis of the deposited data

Results flagged for a closer look

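The difference between the effects of lactoferrin with and without methotrexate was called for 62.4% of all genes tested, by the interaction term in the edgeR fit with epithelial scaling at an adjusted p under 0.05. It was called for 70 of the 112 genes tested by name. Many of those were named for their departure, which is 1 of the 2 effects in the interaction, so their count and values are a description. Values are log2, the effect with methotrexate minus that without. UCA1 was a member only through its level with both agents, and the same may hold for other genes here at low levels. Above 0 were 21 genes: ALPPL2 (1.11), UCA1 (1.11), ASAH2 (0.94), P2RY6 (0.86), AC020571.3 (0.84), HS3ST1 (0.81), SYK (0.81), UGT2B7 (0.76), CENPA (0.67), TRPM6 (0.65), LIN28B (0.58), LGR5 (0.58), TSPAN8 (0.56), PHYHIPL (0.56), SULT2A1 (0.54), KIF20A (0.53), FGA (0.52), ABCC2 (0.44), DPP4 (0.42), TYMS (0.41) and FGG (0.39).

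Below 0 were 49 genes. The smallest differences were those of RPA2 (-0.41), SOX4 (-0.41), EPS8L2 (-0.46), ABCC3 (-0.49), RPLP0 (-0.56), TCF7L2 (-0.60), TCF7 (-0.60), CTNNA1 (-0.62), ABCC5 (-0.63), SCRIB (-0.63), SLBP (-0.80), AP1B1 (-0.88), CTNNB1 (-0.93), SLC19A1 (-0.93), RAB11A (-0.94) and SLC16A1 (-0.98). Next came EPHB3 (-1.07), ABCC1 (-1.08), MYO7B (-1.39), GSTA4 (-1.47), CES2 (-1.60) and EPS8 (-1.78). Below -2 were ANPEP (-2.06), SHMT1 (-2.30), FPGS (-2.34), RBP4 (-2.42), IMPDH1 (-2.56), ACO1 (-2.79), AQP3 (-2.81), KLF4 (-2.82), FTH1 (-3.10), EPHX1 (-3.18) and MT-ND2 (-3.70). The largest were those of LTF (-4.30), SCD (-4.91), SLC2A5 (-4.95), JUN (-4.99), HMOX1 (-5.12), CD44 (-5.54), CDKN1A (-6.97), LIPE (-6.99), CIDEC (-7.04), COL5A1 (-7.16), ACSL1 (-7.26), CCDC80 (-7.26), COL6A2 (-8.43), GPD1 (-8.73), TF (-9.05) and COL4A2 (-9.36). No member was called between both agents and control, or between lactoferrin and control, in the same fit. Of all genes tested, 5 were called between both agents and control, all higher with both agents.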

How the results depend on the processing

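The count of members above the epithelial factor changed with the scale, the threshold and the libraries in the fit. It was 200 in the fit reported, 4064 with TMM, 3941 with relative log expression over all genes, 117 with the other 6 epithelial lists as the scale, 32 with the identity list alone (added after seeing the data), 101 with the 6 libraries alone, 1 at over 2-fold and an adjusted p under 0.01, and 83 to 242 when each library was left out. Of epithelial genes 26 were higher, and these counts were 143 with TMM, 142 with relative log expression, 7 with the identity list, 15 with the 6 libraries, 0 at the stricter threshold and 10 to 32. Epithelial genes lower numbered 33, and 12 with TMM, 12 with relative log expression and 13 at the stricter threshold. Members lower numbered 7993, and 2944, 3034 and 3620 under the same alternatives. Members past 1.5-fold numbered 4843, and 2667 with TMM and 2618 with relative log expression. Of these 1 was higher, against 1261 and 1186 with those scales, 4 with members at 1 CPM or more, 0 with DESeq2, 0 at the stricter threshold and 0 to 3 when each library was left out. Members higher and lower under TMM numbered 4064 and 2944, and 200 and 7993 with epithelial scaling and 622 and 1090 at the stricter threshold. The lactoferrin effect without methotrexate was called for no member, for 1 with DESeq2 and for 14 without the low-count filter. The median of 0.92 for the common factor moved by less than the spread between libraries in every alternative run on it. Whether the replicate numbers pair the libraries was not settled. Same-numbered libraries of the 2 groups had low correlations of 0.03, 0.08 and 0.12. These were the highest for the methotrexate libraries numbered 2 and 3, while number 1 correlated slightly better with number 2 (0.043 against 0.032). With a replicate block 168 members were higher, 163 of them among the 200.

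For the 112 genes tested by name, 1665 of 1904 values kept direction and side of the threshold, 177 lost the call, 28 gained it and 34 changed sign. All that changed sign were lower with epithelial scaling, which lies 0.83 below TMM. With TMM they stood at ABCC3 0.39, ABCC5 0.079, CTNNA1 0.15, CUBN 0.28, EPS8L2 0.56, FEN1 0.52, PARD3 0.53, RFC4 0.43, RPA2 0.26, RPLP0 0.16, SCRIB 0.25, SLBP 0.11, SOX4 0.37, TCF7 0.35, TCF7L2 0.25, VDR 0.18, ZNRF3 0.57, and with relative log expression at ABCC3 0.37, ABCC5 0.06, CTNNA1 0.13, CUBN 0.26, EPS8L2 0.54, FEN1 0.50, PARD3 0.51, RFC4 0.41, RPA2 0.24, RPLP0 0.14, SCRIB 0.23, SLBP 0.088, SOX4 0.35, TCF7 0.33, TCF7L2 0.23, VDR 0.15, ZNRF3 0.55. Thinning the methotrexate libraries to the depth of the others left 178 members higher, 151 of them among the 200.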

Other observations

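Over all genes tested 71.3% were lower and 1.45% higher with epithelial scaling, with a median departure of -0.84, and 34.4% were lower and 28.8% higher under TMM. Lists of stress, ribosome biogenesis, inflammatory and sterol genes are given beside those shares. All 16 NRF2 target genes, which serve antioxidant defence, were lower, with a median departure of -1.81; under TMM 13 were lower and 3 higher. All 20 hypoxia and glycolysis genes were lower, with a median of -0.99; under TMM 9 were lower and 3 higher. Of 25 genes of the integrated stress response 20 were lower, with a median of -1.03, near the values over all genes; under TMM 10 were lower and 8 higher. Of 19 genes of the unfolded protein response 15 were lower, with a median of -0.50, and of 16 heat shock genes 11 were lower, with a median of -0.73. Both turned under TMM, where 11 and 6 were higher and 3 and 3 lower. Of 25 ribosome biogenesis genes 15 were lower, with a median of -0.29, and 17 were higher and none lower under TMM.

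Of 10 NF-kB and inflammatory genes all were lower, with a median of -0.75; under TMM 4 were lower and 2 higher. Of 12 interferon-stimulated genes 9 were lower, with a median of -1.01, also near them; under TMM 5 were lower and 3 higher. Of 23 genes of cholesterol synthesis and uptake 21 were lower, with a median of -1.65; under TMM 15 were lower and 3 higher. Across the 10710 members, the departure had a Spearman correlation of 0.003 with gene length, as a description across genes of the same 6 libraries. Its correlation with CPM with both agents was 0.21, where that CPM is itself 1 side of the departure.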
